A study of Mus musculus with 28 samples.

Results

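Cytosolic ribosomal protein genes were examined in macrophages sorted from the mouse pancreas during and after acute pancreatitis. The members are the protein-coding genes of the deposited expression table whose symbol has the form of a ribosomal protein name (Rpl or Rps, a number and an optional paralog letter) together with Rplp0, Rplp1, Rplp2 and Rpsa. The rule found 84 of the 25301 genes listed, 52 of the large and 32 of the small subunit. All mice were wild-type C57BL/6J, and pancreatitis was induced with caerulein, a cholecystokinin analog that makes acinar cells release and activate digestive enzymes. RNA was sequenced from 28 libraries in 6 groups: NC (3 libraries, a name whose meaning the labels do not give) and D0 (5, day 0 of the recovery model), then at day 1 the groups D1 AP+PBS and D1 AP+Lac with 6 libraries each and at day 3 the groups D3 AP+PBS and D3 AP+Lac with 4 each. AP stands for acute pancreatitis. Lac stands for lactate, the agent whose part in repair the study asked about, and PBS is its saline vehicle. The labels give no age. Whether each library is a separate animal is not stated in them, so each p-value measures only the spread between these libraries.

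The ribosome consists of a large subunit, which forms peptide bonds, and a small subunit, which decodes the messenger RNA. Its proteins are needed in near-equal amounts, and their genes are among the most highly expressed of a mammalian cell. Most of their messenger RNAs begin with a C followed by a run of pyrimidines (C or T), the terminal oligopyrimidine tract, through which mTOR and the RNA-binding protein Larp1 control their translation. RNA abundance, the quantity measured here, therefore does not show by itself how much ribosomal protein was made. Mammalian genomes also hold many near-identical processed copies of these genes, and how fragments shared by copies were counted is not given in the sources used here, so the level of any single member carries that uncertainty.

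The start sites of 7 members are shown: 4 as examples of the usual tract (Rps27, Rpl35, Rpl38 and Rps18), Rpl22l1 with the widest changes, and Rps27l and Rpl7l1, which moved against the rest. Each runs 5′ to 3′ on the transcribed strand from 20 bases before the RefSeq start to 10 bases after it (RefSeq, GRCm38.p6), with runs of at least 6 C or T in capitals. The positions are chr3:90213639-90213668 (minus strand) for Rps27, chr2:39005122-39005151 (minus) for Rpl35, chr11:114668560-114668589 (plus) for Rpl38, chr17:33955656-33955685 (minus) for Rps18, chr3:28805488-28805517 (plus) for Rpl22l1, chr9:66946066-66946095 (plus) for Rps27l and chr17:46782647-46782676 (minus) for Rpl7l1. Each window spans the end of the promoter and the first bases of the first exon.
Rps27: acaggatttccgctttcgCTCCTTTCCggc
Rpl35: gaagtcggccccgCCCTTTCCTCTTTCTCT
Rpl38: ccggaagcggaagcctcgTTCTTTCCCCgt
Rps18: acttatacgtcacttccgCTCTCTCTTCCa
Rpl22l1: cgtgcgtgcggcgcaagcccgTTCTCTTCC
Rps27l: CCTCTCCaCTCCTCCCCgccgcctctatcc
Rpl7l1: gcccggtgaggctgcgcaagcgcagtagct
In Rps27, Rpl35, Rpl38 and Rps18 the run crosses the start, in Rpl22l1 it lies just after it, in Rps27l the runs end before it, and the Rpl7l1 window holds none.

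The RefSeq start-site table matched 63 of the 84 members, with 75 start sites. A run of at least 6 C or T, read from 10 bases before the start and beginning no later than 10 bases after it on the transcribed strand, was present at 37 of these 75 sites (49.3%) and at 24.4% of the 32776 other start sites in the table. A run that ends before the start, as in Rps27l, is included, so these shares do not count tracts at the start of the transcript. The letters CTTTCC, found in Rps27, Rpl35 and Rpl38 above, lay within 20 bases of the start on that strand at 11 member sites (14.7%) against 1.92% of the others. CCGGAA, the core that ETS factors recognise, searched on both strands of the window from 250 bases before to 50 bases after the start, was present at 48.0% of member sites and 14.8% of other sites, and at 27.2% of the starts of the other genes tested here. It was more frequent still at the starts of mitochondrial ribosomal protein genes (42 of 74, 56.8%), so it does not set the members apart. CACGTG, the E-box bound by Myc and related factors, which is its own reverse complement, was present at 10.7% of member sites, 7.14% of others and 9.87% of the starts of the other genes tested, so the members were close to that background. These are matches of letters and not shown binding sites, and CTTTCC can lie inside the pyrimidine run.

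The values are FPKM, fragments divided by transcript length in kilobases and by the library's mapped fragments. The depth implied by the FPKM steps ran from 33273402 to 41060543 fragments per library. Macrophage markers such as Adgre1, which encodes F4/80, were present throughout, with group means of Adgre1 from 142 to 364 FPKM. Markers of other cells were present too, and none of 17 acinar, 10 B and plasma cell or 15 T and NK cell markers was at 0 in any library. D0 stood apart: its summed T and NK markers were 17.75 to 68.8 FPKM per library and its summed B and plasma cell markers 19.87 to 73.1, against at least 177.2 and at least 213.1 in every library of the other groups. Its summed acinar markers were 461.5 to 891.3 FPKM, below the 7158 to 11450 of NC. D0 library 3 had the lowest lymphocyte marker level of all and the lowest value of its group for many members. At day 1 the libraries numbered 5 and 6 stood apart from numbers 1 to 4 in both groups. Their fibroblast and stellate cell markers had mean log2 levels of 1.31 and 1.41 with PBS and 1.36 and 1.5 with lactate, against 2.58 to 3.22 and 2.39 to 3.49 in the other libraries, and their acinar levels were the lowest of their groups. They also had the lowest ribosomal protein shares of their groups. The labels name no batch. Counts of called members in comparisons with day 1 groups are also given within each set. Other results use all day 1 libraries unless stated.

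Ribosomal protein genes were abundant in every group. Averaged over the 6 group means, 76 of 84 members exceeded 100 FPKM and 16 exceeded 1000 FPKM, with a median of 652 FPKM. Rps29, a small-subunit zinc finger protein, was highest at 2202 FPKM, followed by the stalk protein Rplp1 at 1665 FPKM and Rpl41, the smallest ribosomal protein, at 1411 FPKM. At the other end, Rpl7l1, a paralog of Rpl7, averaged 37.7 FPKM, Rpl6l 30.7 FPKM and Rps27l, a paralog of Rps27 that p53 is known to induce, 21.8 FPKM. The remaining 3 were below 10 FPKM: Rpl32l, Rpl39l, known from testis, and Rpl3l, known from striated muscle. The filter of the tests, at least 1 FPKM in at least 3 libraries, kept 82 members, and Rpl39l and Rpl3l did not pass it.

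Together the 84 members held 12.0% ± 0.742 (SD, n = 3) of the summed FPKM of a library in NC, 9.33% ± 1.17 (n = 5) in D0, 14.7% ± 1.19 (n = 6) in D1 AP+PBS, 14.4% ± 2.75 (n = 6) in D1 AP+Lac, 15.5% ± 1.73 (n = 4) in D3 AP+PBS and 12.8% ± 1.29 (n = 4) in D3 AP+Lac. By library the share was 11.6%, 12.9% and 11.5% in NC and 9.45%, 9.93%, 7.28%, 10.1% and 9.85% in D0. Every D0 library thus lay below every NC library. In D1 AP+PBS the lowest library had 13.4% and the highest 16.3%, with a median of 14.5%, all above NC and D0. The 4 D3 AP+PBS libraries had 14.4%, 18.1%, 14.5% and 15.0%, and the 4 D3 AP+Lac libraries 11.6%, 12.7%, 12.4% and 14.7%. These groups overlapped only through the highest lactate library, which exceeded the 2 lowest PBS libraries. The ratio of large-subunit to small-subunit summed FPKM moved little, with group means from 1.18 in D0 to 1.26 in D3 AP+Lac, where it reached 1.34 in library 1.

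**Figure D1:**
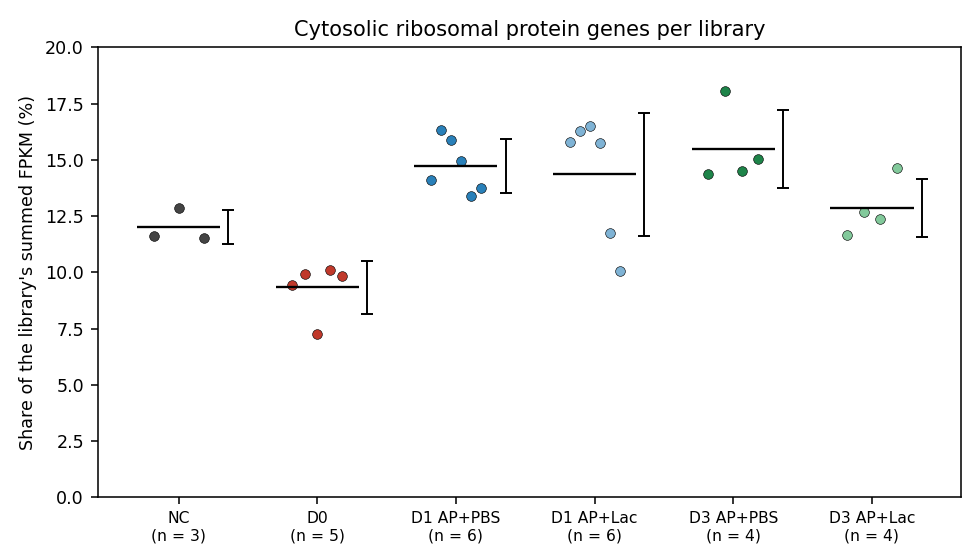
Share of each library's summed FPKM held by the 84 ribosomal protein genes (vertical axis, percent), 1 point per library in the 6 groups, with the group mean as a line and the SD as a bar. The 5 D0 libraries are the lowest group, at 7.28% to 10.1%, and the 6 D1 AP+PBS libraries lie at 13.4% to 16.3%.

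The first comparison asks how macrophages at day 0 of the model differed from the NC group. Of the 82 members tested, 34 were lower in D0 and 2 were higher at an adjusted p under 0.05 (limma on log2(FPKM + 1), Benjamini-Hochberg over all 11960 genes). In this comparison 61.1% of all genes tested were called, 41.4% lower and 19.7% higher. With the FPKM as deposited, the members' count is thus close to the background for lower calls. The median log2 difference of the members was -0.36, against -0.22 over all genes tested. Large-subunit genes (22 of 50 lower, 1 higher, median -0.40) and small-subunit genes (12 of 32 lower, 1 higher, median -0.35) had similar counts. In 56 members every D0 library lay below every NC library, a pattern shown by 46.6% of all genes, and in 2 every D0 library lay above, as in 21.7% of all genes.

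Rpl22l1, a paralog of Rpl22 that can take its place in the ribosome, had the lowest difference. Its FPKM were 130, 143 and 137 in NC and 56.2, 64.3, 61.3, 70.6 and 57.2 in D0, with no overlap, a log2 difference of -1.13 (SE 0.25, adjusted p = 0.00041). Rps4x, the X-linked form of a small-subunit protein, had 782, 856 and 742 FPKM in NC against 437, 454, 369, 462 and 437 in D0, again apart, and fell by 0.88 (SE 0.14, adjusted p = 1e-05). Rpl5, which with Rpl11 and the 5S RNA binds Mdm2 when ribosome assembly is disturbed, fell by 0.76 (SE 0.17, adjusted p = 0.00066). Rpl11 itself was at -0.13 (SE 0.15, adjusted p = 0.46) and was not called. Rpl13a, a large-subunit protein known from interferon-induced translational silencing, fell by 0.74 (adjusted p = 0.0016), and Rps6, the target of S6 kinase, by 0.44 (adjusted p = 0.028). Of the stalk proteins, which recruit elongation factors to the large subunit, Rplp1 fell by 0.49 (adjusted p = 0.044), whereas Rplp0 at -0.20 (adjusted p = 0.37) and Rplp2 at -0.04 (adjusted p = 0.87) were not called. Rpsa, which is also known as the laminin receptor precursor, fell by 0.50 (adjusted p = 0.03). Rps19, the protein most often affected in Diamond-Blackfan anemia, was at -0.10 (adjusted p = 0.68), and Rpl41, the third highest member, at 0.08 (adjusted p = 0.72).

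The called members depended on single libraries and on scaling. Without NC library 2 the lower calls numbered 16 and without D0 library 3 they numbered 20. With median-ratio scaling, which shifted the median of all genes in this comparison by 0.18, they numbered 13, where 3824 of all genes were lower. With quantile normalization, which shifted it by 0.27, they numbered 53, where 2755 of all genes were lower. The FPKM as deposited gave 34 and 4948, so the members' place against the background depended on the scaling. Markers of other cells moved with the same groups: the mean log2(FPKM + 1) of the B, plasma, T and NK markers was 4.12 in NC and 1.98 in D0, that of 17 acinar markers 8.29 and 4.35, and that of dendritic cell markers 4.28 and 2.24. Neutrophil markers moved the other way, from 1.87 in NC to 2.87 in D0, the direction of Rps27l and Rpl7l1, and their part in those differences was not tested. With the lymphocyte level as a covariate the same comparison had 12 members higher and 0 lower, and with the acinar level 3 higher and 0 lower. The lymphocyte level of no D0 library, at most 2.27, came near that of any other library, at least 3.79, so this level and the day 0 group cannot be told apart. In bulk samples, fewer cells of a type and less RNA per cell cannot be told apart either.

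**Figure D2:**
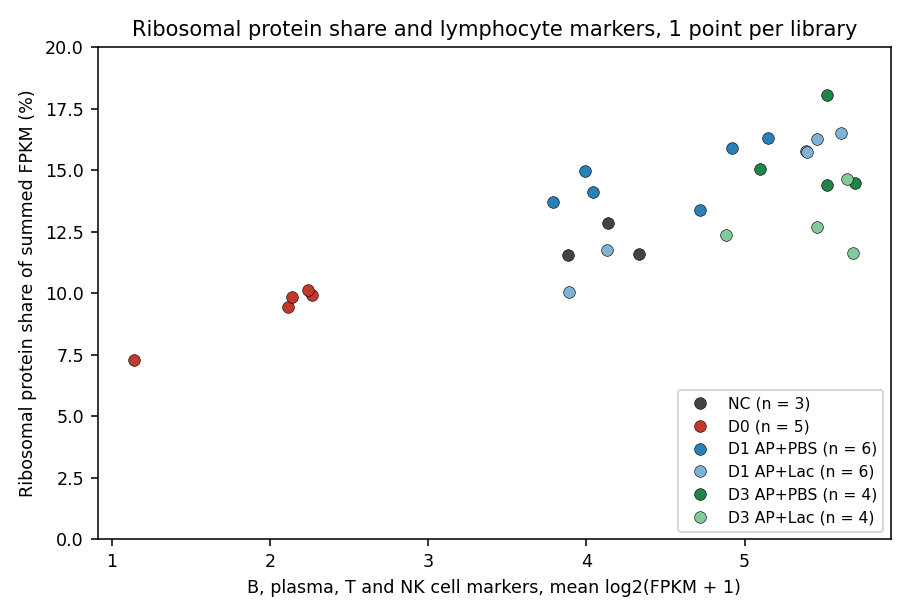
Ribosomal protein share of the summed FPKM (vertical axis, percent) against the mean log2(FPKM + 1) of B, plasma, T and NK cell markers (horizontal axis), 1 point per library. The 5 D0 libraries lie alone at the lower left, with marker levels of at most 2.27, and all other libraries lie at 3.79 or more with shares from 10.0% upwards.

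The next comparison follows the recovery from day 0 to day 1 with PBS. Here 79 of 82 members were higher in D1 AP+PBS and 2 were lower, where 43% of all genes tested were higher, 19.8% lower and 62.9% called in all. The median log2 difference was 0.68 for the members and 0.19 for all genes. In 77 members every D1 AP+PBS library lay above every D0 library, which held for 31.7% of all genes. The comparison shares its 5 D0 libraries with the one against NC, so low values in D0 enter both. Calls were 49 higher and 1 lower of 50 in the large subunit and 30 higher and 1 lower of 32 in the small subunit, with medians of 0.66 and 0.69. The member not called was Rps2, named after its value was seen, at 0.36 (adjusted p = 0.08). Rpl32l, counted among the higher ones, was below 1 FPKM in every D0 library. It passed the filter through other groups, D1 AP+PBS among them, so its call is no support.

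Rpl22l1 again had the widest difference, 1.35 (SE 0.21, adjusted p = 5.6e-06), with D1 AP+PBS libraries from 131 to 198 FPKM and a median of 152. Rps20, a small-subunit protein, rose by 1.12 (SE 0.15, adjusted p = 6e-07), and Rpl12, a protein at the base of the stalk, by 1.07 (SE 0.18, adjusted p = 2e-05). Rpl13a had 626, 614, 431, 678 and 624 FPKM in D0 and from 1098 to 1500 in D1 AP+PBS, so the groups did not overlap, and rose by 1.06 (SE 0.16, adjusted p = 2.9e-06). Rps4x rose by 0.96 (adjusted p = 1.9e-07), Rpl3, part of the peptidyl transferase region, by 0.98 (adjusted p = 3.9e-06), and Rpl5 by 0.85 (adjusted p = 2.2e-05). The stalk proteins Rplp0, Rplp1 and Rplp2 rose by 0.61, 0.95 and 0.62, Rpsa by 0.87, Rps6 by 0.63, Rpl11 by 0.54 and Rps19 by 0.65. Rpl10, which forms part of the site where tRNA enters and joins the large subunit late, had the smallest rise among those named, 0.32 (SE 0.11, adjusted p = 0.012).

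Leaving out D0 library 3 left 77 higher and 2 lower, and no single library brought the called members below 79. Within the day 1 sets, 80 were higher and 2 lower with libraries 1 to 4, and 60 were higher and 2 lower of 81 tested with libraries 5 and 6. The lymphocyte level moved with the groups here as well, from 1.98 in D0 to 4.43 in D1 AP+PBS, and with it as a covariate 0 members were higher, 3 were lower and the median difference was -0.00. With the acinar level, 42 were higher and 2 lower. As above, the lymphocyte level and the day 0 group cannot be told apart.

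**Figure D3:**
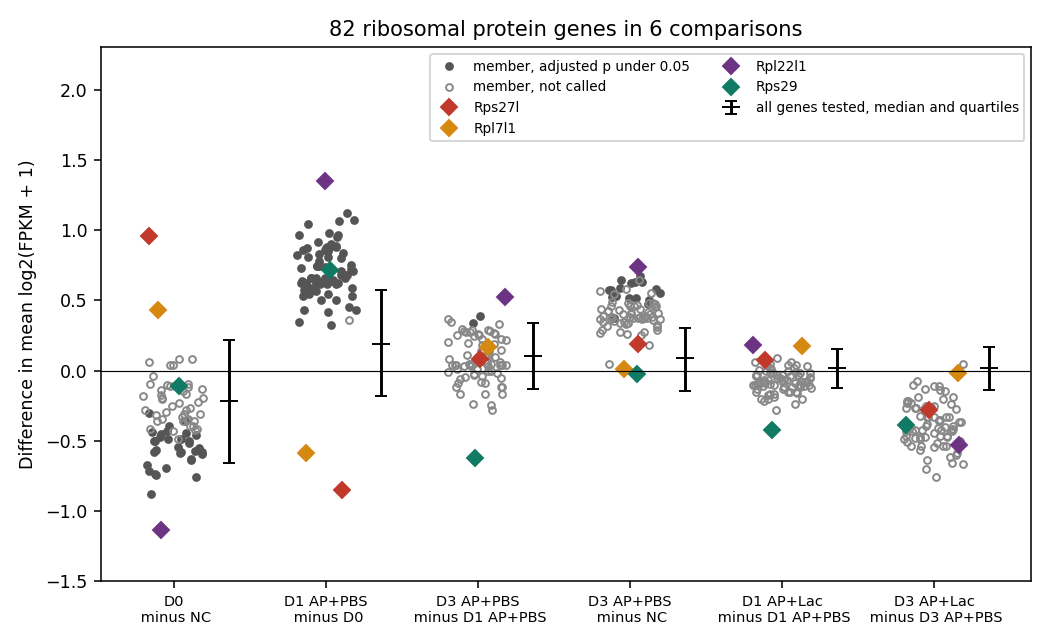
Difference in mean log2(FPKM + 1) (vertical axis) of the 82 tested ribosomal protein genes in 6 comparisons, filled where the adjusted p is under 0.05, with 4 genes in colour and the median and quartiles of all genes tested as a bar. The cloud lies at a median of 0.68 in D1 AP+PBS minus D0 and at -0.39 in D3 AP+Lac minus D3 AP+PBS, while Rps27l and Rpl7l1 lie on the opposite side of the cloud in both comparisons with D0.

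Rps27l (NCBI Gene 67941) and Rpl7l1 (66229) moved against the other members. Rps27l had 16.2, 20.9 and 16.2 FPKM in NC and 45.1, 32.3, 27.9, 36.3 and 37.1 in D0, and from 16.3 to 20.8 in D1 AP+PBS, with a median of 19.5. All D0 libraries lay above all libraries of both groups. The log2 difference was 0.96 in D0 against NC (SE 0.18, adjusted p = 6.7e-05) and fell by 0.85 from D0 to D1 AP+PBS (SE 0.15, adjusted p = 2.9e-05). Rpl7l1 had 35.2, 38.2 and 34.7 FPKM in NC, 47.2, 47.9, 47.0, 51.9 and 50.6 in D0 and from 28.3 to 37.0 in D1 AP+PBS, with a median of 32.2. Again the D0 libraries were above all others compared, with differences of 0.43 (SE 0.09, adjusted p = 0.00037) and -0.58 (SE 0.08, adjusted p = 7.4e-07). With the lymphocyte covariate these 2 members kept their sign and their call in both comparisons, and no other member did so in either. That fit cannot single them out, since the lymphocyte level and the day 0 group cannot be told apart. It moved the members as a set against their main direction in both comparisons, and these 2 already lay on that side. With the acinar covariate against NC, Rps27l kept its call and Rpl7l1 did not (0.34, adjusted p = 0.11).

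The FPKM ratio of a paralog to its partner does not depend on how much of the library other genes take. Rps27l stood at 0.0185 of Rps27 in NC, 0.0558 in D0, 0.0164 in D1 AP+PBS, 0.0171 in D1 AP+Lac, 0.0136 in D3 AP+PBS and 0.0187 in D3 AP+Lac. Its log2 ratio was 1.76 lower in D1 AP+PBS than in D0 (exact two-sided permutation test, p = 0.0022, adjusted p = 0.013 over 18 tests of 3 ratios in 6 comparisons). Against NC the D0 ratio was 1.58 higher with p = 0.018, the smallest that 3 against 5 libraries allow in this exact test, and an adjusted p of 0.051. Rpl7l1 stood at 0.0362 of Rpl7 in NC, 0.0784 in D0 and 0.0327 in D1 AP+PBS, with log2 differences of 1.12 (exact permutation p = 0.018, adjusted 0.051) and -1.26 (p = 0.0022, adjusted 0.013). Rpl22l1 went the other way relative to Rpl22, whose protein is known to repress it: 1.38 in NC, 0.872 in D0, 1.42 in D1 AP+PBS, 1.70 in D1 AP+Lac, 1.78 in D3 AP+PBS and 1.67 in D3 AP+Lac. Its log2 ratio rose by 0.72 from D0 to D1 AP+PBS (exact permutation p = 0.0022, adjusted 0.013). The ratio of Rpl7l1 to Rpl7 fell by 0.17 from D1 AP+PBS to D3 AP+PBS (exact permutation p = 0.0095, adjusted 0.043). The other 14 ratio tests did not pass the adjusted threshold, among them all 6 of lactate against PBS. In the comparison at day 3 the log2 ratio of Rps27l to Rps27 was 0.46 higher with lactate (p = 0.029, the smallest that 4 against 4 libraries allow in the exact test, adjusted 0.051).

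**Figure D4:**
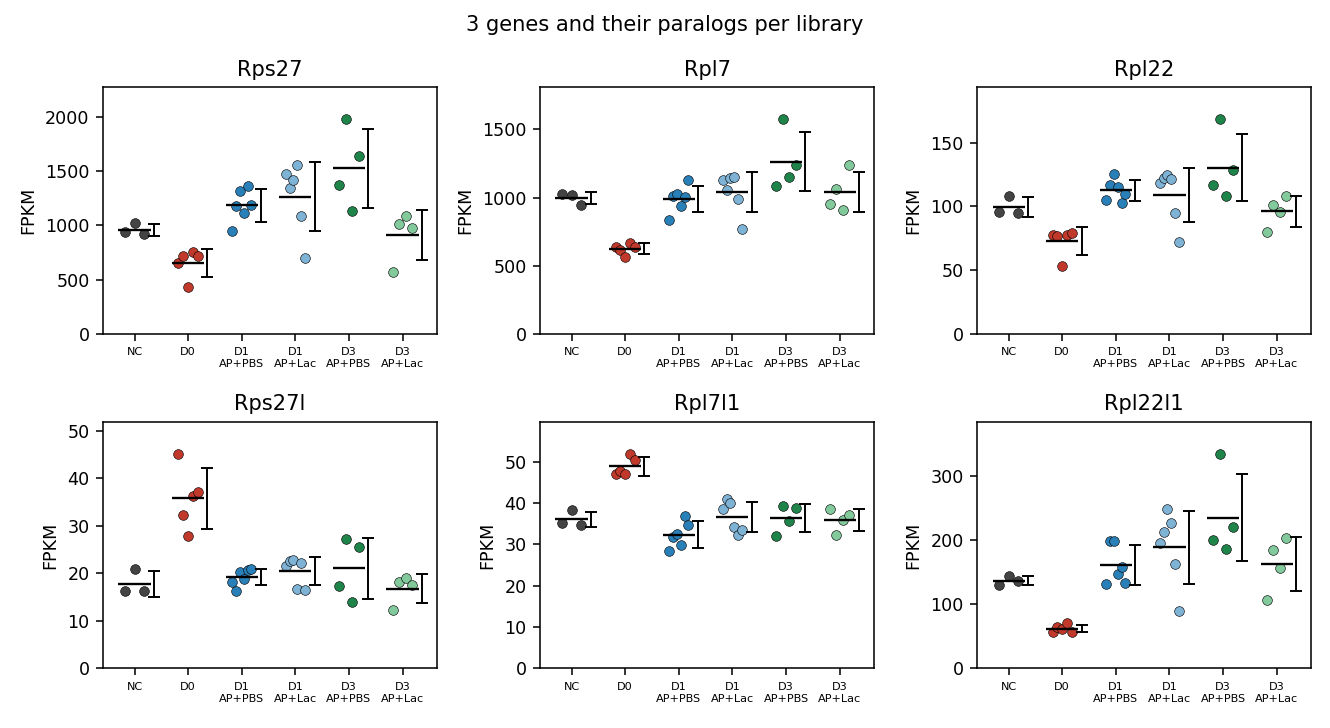
FPKM (vertical axes, each from 0) of Rps27, Rpl7 and Rpl22 in the upper row and of their paralogs Rps27l, Rpl7l1 and Rpl22l1 in the lower row, 1 point per library, with the group mean as a line and the SD as a bar. Rps27l (27.9 to 45.1 FPKM) and Rpl7l1 (47.0 to 51.9) are highest in D0, where the group means of their partners and of Rpl22l1 (56.2 to 70.6) are lowest.

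From day 1 to day 3 with PBS few members moved. Of 82, 2 were higher and 1 was lower in D3 AP+PBS, where 34.3% of all genes were called, 21.5% higher and 12.8% lower. The median difference was 0.06 for the members and 0.10 for all genes. Rps6 rose by 0.39 (SE 0.15, adjusted p = 0.049) and Rpl7, a large-subunit protein, by 0.34 (SE 0.12, adjusted p = 0.03). Rps29 fell by 0.63 (SE 0.20, adjusted p = 0.021), from 3418, 3088, 3480, 3820, 2309 and 2856 FPKM in D1 AP+PBS to 1772, 2726, 1545 and 2241 in D3 AP+PBS. Only the highest day 3 library overlapped the day 1 range. Rpl22l1 had the highest difference, 0.53 (SE 0.22, adjusted p = 0.066), and was not called, nor were Rps28 at -0.28 and Rpl41 at -0.25. With 1 library left out the count lay between 0 and 4: it was 0 without D1 AP+PBS library 4 and 1 without D1 AP+PBS library 1, D3 AP+PBS library 1 or D3 AP+PBS library 2. It was 10 with quantile normalization, 8 with TPM scaling, 8 (all lower) with the acinar covariate, 9 with only libraries 1 to 4 of day 1 and 0 with only libraries 5 and 6. Markers of other cells moved between these groups too: macrophage markers were at 8.70 in D1 AP+PBS and 7.69 in D3 AP+PBS, acinar markers at 6.27 and 7.96 and T and NK markers at 4.00 and 5.36. Beyond the acinar covariate, their part in the result was not tested.

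Against NC, D3 AP+PBS had 18 members higher and 0 lower, where 10.3% of all genes were higher, 10.9% lower and 21.2% called. The median difference was 0.41 for the members and 0.09 for all genes, and 81 of 82 members lay above 0. In 46 members every D3 AP+PBS library lay above every NC library, as in 22% of all genes. The calls were 9 in each subunit. Rpl22l1 rose by 0.74 (SE 0.26, adjusted p = 0.044), Rpl12 by 0.67 (SE 0.23, adjusted p = 0.038) and Rps24, which is needed to process the small-subunit RNA, by 0.65 (SE 0.19, adjusted p = 0.016). Rps24 had 337, 367 and 322 FPKM in NC and 510, 710, 412 and 552 in D3 AP+PBS, with no overlap. Rps6 rose by 0.57 and Rpl13a by 0.62 (adjusted p = 0.026 for both). The lowest were Rps29 at -0.02, Rpl7l1 at 0.01 and Rpl10 at 0.05, none of them called, and Rps27l at 0.19 (adjusted p = 0.48) was likewise not called. Without NC library 3 no member was called (0), without D3 AP+PBS library 2 only 1 was, without NC library 1 there were 2, and without D3 AP+PBS library 4 there were 10. With the lymphocyte covariate the count was 0 and with the acinar covariate 49, and the lymphocyte level itself was 5.46 in D3 AP+PBS against 4.12 in NC. Their part in the result was not tested further.

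Lactate was then set against PBS at each day. At day 1, 0 of 82 members passed the adjusted threshold in limma, whereas 9.72% of all genes tested were called, 5.16% higher and 4.56% lower. An unadjusted p under 0.05 was found for 2 members and for 3029 of all 11960 genes tested. The median difference was -0.08 for the members and 0.02 for all genes. The lowest were Rps29 at -0.42 (SE 0.18, adjusted p = 0.14), Rps28 at -0.28 (adjusted p = 0.35) and Rpl37a, a large-subunit zinc finger protein, at -0.24 (adjusted p = 0.39). The highest were Rpl22l1 at 0.18 (adjusted p = 0.63), Rpl7l1 at 0.17 (adjusted p = 0.14) and Rpl23a, which lies at the exit of the peptide tunnel, at 0.09 (adjusted p = 0.72). In 0 members did the groups not overlap, and over all genes tested this was as rare, with 0.134% all above and 0.276% all below. The day 1 libraries were split by number in both groups. The ribosomal protein shares of the PBS libraries were 14.1%, 16.3%, 15.9%, 15.0%, 13.4% and 13.7%, and those of the lactate libraries were 15.8%, 16.3%, 16.5%, 15.7%, 11.8% and 10.0%. Libraries 5 and 6 were the lowest of each group. Rps27 had 1476, 1347, 1414, 1558, 1085 and 699 FPKM with lactate, where again 5 and 6 were lowest. With PBS it had 944, 1182, 1313, 1113, 1361 and 1184, where library 5 was the highest. The lower shares of libraries 5 and 6 with PBS thus did not hold for every member. With only libraries 1 to 4 of both groups, a choice made after the data were seen, 1 member was higher, 0 were lower and the members' median was 0.07. With only libraries 5 and 6 of both groups the median was -0.38 and 0 of 81 were called, and with this split as a term in the fit it was -0.08 with 0 called. The difference at day 1 thus did not have 1 sign over both sets, and 2 libraries a group leave the second value imprecise. Markers of other cells also moved with lactate at day 1: T and NK markers were at 4.00 with PBS and 4.89 with lactate, dendritic cell markers at 3.64 and 4.16 and macrophage markers at 8.70 and 8.22.

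At day 3, 0 of 82 members passed the adjusted threshold in limma. An unadjusted p under 0.05 was found for 50 members and for 2144 of all 11960 genes tested. Only 0.376% of all genes tested were called in this comparison. The members' median difference was -0.39 against 0.02 for all genes, 81 of 82 had a value below 0, and in 26 every lactate library lay below every PBS library, as in 4.33% of all genes. The medians were -0.40 in the large subunit and -0.39 in the small subunit. These members share libraries and tend to vary together, so the number with an unadjusted p under 0.05 is not a count of independent results.

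Rps27 had the lowest difference at day 3. It had 1369, 1976, 1128 and 1636 FPKM with PBS and 571, 1013, 1088 and 975 with lactate, a log2 difference of -0.76 (SE 0.23, adjusted p = 0.11). All lactate libraries lay below all PBS libraries, library 1 the furthest. Rpl39, a small basic protein of the peptide tunnel, had 884, 1363, 757 and 1072 FPKM with PBS and 381, 680, 742 and 732 with lactate (-0.70, SE 0.21, adjusted p = 0.11), also without overlap. Rpl38, which is known for its part in the translation of Hox messenger RNAs, was at -0.67 (SE 0.19, adjusted p = 0.1), and Rps24, named after its value was seen, at -0.66 (SE 0.17, adjusted p = 0.082), with 510, 710, 412 and 552 FPKM against 268, 368, 357 and 373. The highest were Rplp0, the base of the stalk, at 0.04 (adjusted p = 0.93), Rpl7l1 at -0.02 (adjusted p = 0.94) and Rpl4, a large-subunit core protein, at -0.08 (adjusted p = 0.85). Rplp0 had 933, 1330, 1332 and 1014 FPKM with PBS and 1400, 1079, 878 and 1431 with lactate, so the groups overlapped throughout. Of the other members followed in every comparison, Rplp1 was at -0.39, Rplp2 at -0.47, Rpsa at -0.11, Rps6 at -0.33, Rpl13a at -0.41, Rpl5 at -0.23, Rpl11 at -0.37 and Rps19 at -0.60, none of them called.

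Leaving out any single library gave between 0 and 1 called members at day 3. Acinar markers moved with the groups, with a mean level of 7.96 with PBS and 6.28 with lactate, and with that level as a covariate the members' median was -0.14. With quantile normalization it was -0.18. T and NK markers were at 5.36 and 4.89 and B and plasma cell markers at 5.60 and 6.21, and with the joint lymphocyte level as a covariate 10 members were lower. Their part in the difference was not tested further.

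The transcript length behind the FPKM moved with the lactate differences. It is the length by which the fragments were divided, such as 5136 nucleotides for Rps15a and 3641 for Rps20. Whether it is the length of the RNA present was not tested. A longer length gives a lower FPKM, so levels compared between members depend on it too. The length behind each FPKM was recovered from its steps, and over the 82 members Spearman's rho between length and the log2 difference was 0.33, given as a description since the members share libraries. The 13 members under 500 nucleotides had a median of -0.41 and the other 127 genes of that length -0.26. From 500 to under 750 nucleotides the medians were -0.46 for 23 members and -0.15 for 299 other genes, from 1000 to under 1500 nucleotides -0.33 for 13 members and -0.05 for 998 others, and from 2000 to under 3000 nucleotides -0.30 for 6 members and 0.01 for 2141 others. The medians of other short genes thus lay below 0 as well, and the members' medians lay below those of other genes in each of these classes. The rho with length was 0.38 for lactate at day 1 and 0.29 from D1 to D3 with PBS, so it was not larger at day 3, and it was -0.15 in D1 AP+PBS against D0, -0.06 in D0 against NC and 0.04 in D3 AP+PBS against NC.

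**Figure D5:**
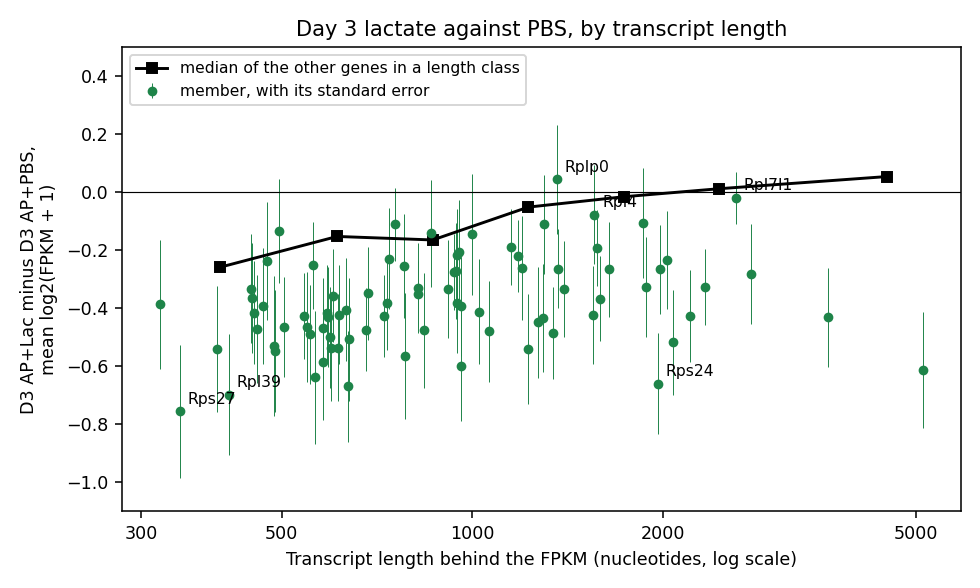
Difference in mean log2(FPKM + 1) between D3 AP+Lac and D3 AP+PBS (vertical axis) against the transcript length behind the FPKM in nucleotides (horizontal log axis). Each of the 82 members is a point with its standard error, and squares are the medians of the other genes in 7 length classes. Members under 500 nucleotides lie around -0.41 and other genes of that length around -0.26, while Rplp0 (0.04) and Rpl7l1 (-0.02) lie near 0.

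The difference between the lactate effects was itself tested (day 3 minus day 1). Of 82 members 1 was lower and 0 were higher, where 10.7% of all genes were called, 5.94% lower and 4.76% higher. The median was -0.31 for the members and 0.01 for all genes. The called member was Rps24, at -0.70 (SE 0.22, adjusted p = 0.045). Rps27 at -0.81 (SE 0.30, adjusted p = 0.075) and Rpl22l1 at -0.71 (SE 0.31, adjusted p = 0.14) were as low and were not called, and the highest were Rplp0 at 0.12, Rpl10 at 0.05 and Rps29 at 0.03. The count rested on the day 1 libraries: without D1 AP+Lac library 6 there were 18 lower. With only libraries 1 to 4 of both day 1 groups there were 30 lower and the median was -0.46. With only libraries 5 and 6 there were 0 and it was -0.02, and with the split as a term there was 1. Rps24 lost its call in 14 of the 20 fits that left out 1 library, with values from -0.84 to -0.57 over all 20.

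Some ribosome genes that the symbol rule does not take in followed the members in part. Fau, which encodes a small-subunit protein as a fusion, rose from D0 to D1 AP+PBS by 0.60 (adjusted p = 0.00029), and Rack1, the scaffold on the small subunit, rose by 0.66 (adjusted p = 0.00022). Rps27rt, a copy of Rps27, rose by 0.79, and Rpl36al fell by 0.42 (adjusted p = 0.014) after a rise of 0.71 in D0 against NC (adjusted p = 0.0011). Rps27rt is near-identical to Rps27, and fragments of either could have been counted for the other. The elongation factors Eef1a1, which brings tRNA to the ribosome, Eef2, which drives translocation, and Eef1b2 rose by 0.51, 0.96 and 1.10 in the same comparison, as did Tpt1, another messenger RNA with a pyrimidine tract, by 0.34. Of the 13 genes on the list of elongation and release factors, 7 rose and 4 fell there. Of all genes 43% were higher and 19.8% lower. The lowest on the list were Eef1e1 at -1.14, which is taken here only as an entry of that list, and Abce1, which recycles ribosomes, at -0.62.

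Mitochondrial ribosomal protein genes, which serve a separate ribosome, were chosen by their symbols after the table was opened. In D0 against NC 50 of 77 rose and 0 fell, where 19.7% of all genes were higher and 41.4% lower, and their median was 0.36, opposite in sign to the cytosolic members. Mrpl52 had the highest difference, 1.60 (adjusted p = 2.3e-07), followed by Mrps28 at 1.03 (adjusted p = 0.0016). From D0 to D1 AP+PBS 5 rose and 33 fell (43% and 19.8% of all genes), with a median of -0.18 and the lowest values for Mrps28 at -1.17 and Mrpl52 at -1.12. From D1 to D3 with PBS 9 rose and 4 fell (21.5% and 12.8% of all genes), and with lactate 0 of 77 were called at either day. At day 1 and day 3, 2 and 10 of them had an unadjusted p under 0.05 by limma. Of all 11960 genes tested, 3029 and 2144 did.

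Ribosome biogenesis factors, which process and fold the ribosomal RNA, had medians opposite in sign to the members' in both comparisons with D0. Of 50 tested, 10 rose and 4 fell in D0 against NC (median 0.14), where 19.7% of all genes were higher and 41.4% lower. The rises were thus at the background and the falls below it. With median-ratio scaling 3612 of all genes were higher and 3824 lower in D0 against NC. Neither this list nor the mitochondrial genes were counted under that scaling. From D0 to D1 AP+PBS 3 rose and 23 fell (median -0.31), against 43% and 19.8% of all genes. From D1 to D3 with PBS 31 rose and 0 fell (median 0.52), against 21.5% and 12.8%. From D0 to D1 AP+PBS, Heatr1 and Pno1 fell by 1.02 and 1.18, while Npm1 and Ncl, abundant nucleolar proteins, rose by 1.06 and 0.67. From D1 to D3 the highest were the nucleolar GTPase Gnl3 at 0.97 (adjusted p = 0.0056) and Wdr43 at 0.92 (adjusted p = 0.00045), and Fbl, which methylates ribosomal RNA, was at 0.36 and was not called (adjusted p = 0.18). Of 17 RNA polymerase I genes tested, 5 rose and 5 fell from D0 to D1 and 6 rose and 0 fell from D1 to D3, against the same shares of all genes. Polr1a, its largest subunit, rose by 0.65 from D1 to D3.

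Regulators of ribosomal protein synthesis were called about as often as all genes in both comparisons with D0. Of 29 genes of mTOR and Myc regulation tested, 5 rose and 14 fell in D0 against NC (19.7% and 41.4% of all genes), and 13 rose and 7 fell from D0 to D1 AP+PBS (43% and 19.8%), so the counts are no result about this list. Pdcd4, an inhibitor of the initiation helicase, fell by 2.27 in D0 against NC and rose by 2.48 from D0 to D1 AP+PBS, and Deptor, an inhibitor of mTOR, fell by 1.98 and rose by 1.88. Sesn2, a leucine sensor that restrains mTOR, and Mdm2, the ligase of p53, did the reverse, rising by 1.46 and 1.04 and then falling by 1.02 and 0.89. Eif4ebp1, the translational repressor released by mTOR, rose by 1.03 in D0 (adjusted p = 9.3e-05) and fell by 0.91 from D1 to D3 (adjusted p = 0.00058). Myc fell by 0.83 in D0 against NC (adjusted p = 0.03) and rose by 1.11 from D1 to D3 (adjusted p = 0.0051). Mtor itself was called in none of the 7 comparisons, its differences lying between -0.18 and 0.27. Larp1 fell by 0.45 from D0 to D1 and rose by 0.52 from D1 to D3.

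With lactate at day 1, where 9.72% of all genes were called, single genes of these lists passed the threshold, and the part of the T and NK, dendritic cell and macrophage markers that moved with lactate was not tested for them. Larp1 rose by 0.47 (adjusted p = 0.024), Mxd1, a Myc antagonist, by 1.34 (adjusted p = 0.0089) and Mycl by 0.57 (adjusted p = 0.014), while Mxd4 fell by 0.57 (adjusted p = 0.012) and Deptor by 0.58 (adjusted p = 0.014). Of 39 initiation factors 1 rose, Eif2s1 by 0.31 (adjusted p = 0.046), and of 50 biogenesis factors 3 rose, among them Wdr43 by 0.51 (adjusted p = 0.035). Beside the 5.16% of all genes that were higher, these 2 counts are no result about their lists. Eef2k, the kinase that inhibits Eef2, fell by 0.55 (adjusted p = 0.024). In the integrated stress response, which limits initiation, Eif2ak2 rose by 1.13 (adjusted p = 0.016) and Atf3 fell by 0.78 (adjusted p = 0.026), 2 genes rising and 2 falling of 14. At day 3, 0 genes of these 8 pathway lists were called with lactate by limma. Between 0 and 5 genes of a list had an unadjusted p under 0.05, as had 2144 of all 11960 genes tested.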

How the data were processed

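A single table of FPKM was deposited by the authors, with genes in rows and libraries in columns, and the unit is named per the file headers. The tools fastp and R 3.2.0 appear in the submitters' processing notes, and the aligner, the counter, the annotation and the build were not given in the sources used here. Per the labels' protocols, 10 ng of total RNA went into a library. Because FPKM divide by a library's mapped fragments, RNA that takes up more of a library lowers the values of its other genes. Groups and replicate numbers came from the sample titles.

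A gene's FPKM are multiples of the value of 1 fragment. These steps gave the depth and the transcript length behind each FPKM for 23406 genes, all 84 members included (100% of values whole, tolerance 0.02 fragments). Within groups, 55 pairs of libraries were compared by their fragments, and chi-square per degree of freedom was at least 24.5, so none looked like a library deposited more than once. This cannot show that they are independent animals.

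Differences were tested with limma 3.58.1 (R 4.3.3) on log2(FPKM + 1), a scale that understates changes of low genes. The filter asked for FPKM of 1 or more in 3 or more libraries and left 11960 genes. The model had 6 group means and a spread shared by the 28 libraries, with robust, trended moderation of variances. The two-sided p-values were adjusted within a comparison by Benjamini-Hochberg across the genes tested, and 0.05 was the threshold. Group levels are mean FPKM ± SD. Paralog ratios were tested by exact permutation of libraries. The fit was tested on simulated data. Other steps used Python 3.11.15, numpy 2.4.6, pandas 2.3.3, scipy 1.17.1 and matplotlib 3.10.9. Sequences are RefSeq's for GRCm38.p6, matched by symbol.

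Named in each comparison are the 3 highest and 3 lowest members, a fixed set of members and paralogs, up to 2 highest and 2 lowest called genes of a pathway list, and some translation genes. Where many were named, a selection of them is printed. A result for 1 gene that the rule names is not reported here. The members, the lists and this rule were chosen with earlier results of these data known. The alternatives were pseudocount 0.1, no filter, a filter of FPKM 5, quantile and median-ratio scaling, TPM scaling, a replicate block, acinar and lymphocyte marker covariates, only the groups compared, and leaving out each library. Fits without libraries 5 and 6 or 1 to 4 of both day 1 groups, with that split as a term, and without D1 AP+Lac libraries 5 and 6 were added after seeing the data.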

Additional observations from a re-analysis of the deposited data

Results flagged for a closer look

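In groups of 4 to 10 libraries, the highest or lowest library was compared with the rest by the size of its gap relative to the group's range (Dixon's test at 95%). This was done for the ribosomal protein share, the ratio of large-subunit to small-subunit summed FPKM and 29 named members. Of 155 groups tested 24 were set apart, where chance gives about 1 in 20, and members of 1 library are not independent of each other. D0 library 3 was low in 21 of them. Its ribosomal protein share was 7.28% of the summed FPKM, with the other D0 libraries at 9.45% to 10.1%. Among large-subunit genes it had 215.2 FPKM for Rpl11, 270 for Rpl12, 431.2 for Rpl13a, 52.89 for Rpl22, 418 for Rpl3, 463.4 for Rpl37a, 150.6 for Rpl38, 374.3 for Rpl39, 460.9 for Rpl4, 832.8 for Rpl41 and 178.1 for Rpl5. The stalk genes were at 708.3 FPKM for Rplp1 and 382.7 for Rplp2. Among small-subunit genes it had 268.3 FPKM for Rps19, 34.65 for Rps20, 177.1 for Rps24, 321.4 for Rps28, 1299 for Rps29, 369.2 for Rps4x and 328.2 for Rpsa. Without it D0 against NC had 2 members higher and 20 lower, and D1 AP+PBS against D0 had 77 higher and 2 lower.

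D3 AP+Lac library 1 was low for Rpl37a at 489.4 FPKM (the others 809.6 to 867.6), for Rpl39 at 381.3 (the others 680.3 to 741.5) and for Rps24 at 268.1 (the others 357.4 to 373).

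Rps24 differed between the days in its response to lactate, by the test of the difference itself: the log2 difference at day 3 minus that at day 1 was -0.70 (limma, adjusted p = 0.045). The call was lost in 14 of the 20 fits that left out 1 library, without a filter, with quantile normalization, with either marker covariate, with only the groups compared and with only libraries 5 and 6 of both day 1 groups (-0.28, adjusted p = 0.82). It was kept with only libraries 1 to 4 of these groups (adjusted p = 0.0019).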

How the results depend on the processing

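Counts of called members in D0 against NC were 56 with quantile normalization, 15 with median-ratio scaling, 3 with the acinar and 12 with the lymphocyte covariate, and 18 to 37 with 1 library left out. For D1 AP+PBS against D0 they were 44 and 3 with the acinar and lymphocyte covariates and 79 to 82 with 1 library left out. For D3 against D1 with PBS they were 10, 1 and 8 with quantile, median-ratio and TPM scaling, 1 with the replicate block, 8 with the acinar covariate, 9 and 0 with only libraries 1 to 4 or only 5 and 6 of day 1, and 0 to 4 with 1 library left out. For D3 AP+PBS against NC they were 11 without a filter, 49 and 0 with the acinar and lymphocyte covariates and 0 to 24 with 1 library left out. For lactate at day 1 they were 1 with the lymphocyte covariate, 3 without D1 AP+Lac libraries 5 and 6 alone, 1 without 5 and 6 of both day 1 groups and 0 to 1 with 1 library left out, and at day 3 they were 10 with the lymphocyte covariate and 0 to 1 with 1 library left out. For the difference between the lactate effects they were 0 without a filter, with quantile normalization, with either covariate and with only the groups compared, 2 with the replicate block, 39 without D1 AP+Lac libraries 5 and 6 alone, 30 and 0 with only libraries 1 to 4 or only 5 and 6 of both day 1 groups, and 0 to 18 with 1 library left out. Leaving out numbers 5 and 6 of the lactate group alone compares unlike sets, since the same numbers stood apart with PBS. The cause of these changes was not tested. Scaling shifted the median of all genes in D0 against NC, D1 AP+PBS against D0 and D3 against D1 with PBS by 0.27, -0.23 and -0.11 (quantile) and by 0.18, -0.17 and -0.09 (median-ratio).

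Of 3413 recomputed differences of 29 named members, 25 changed direction where a call was involved, all under a marker covariate, 135 lost and 68 gained a call in the same direction, and 217 uncalled values changed sign. In D0 against NC the acinar covariate gave Rpl22 0.12, Rplp1 0.29, Rps27 0.045, Rps6 0.021 and Rpsa 0.072, and the lymphocyte covariate gave Rpl13a 0.15, Rpl22 0.12, Rpl3 0.14, Rpl5 0.024, Rplp0 0.59, Rplp1 0.23, Rplp2 0.61, Rps27 0.12, Rps6 0.28 and Rpsa 0.37. In D1 AP+PBS against D0 the lymphocyte covariate gave Rpl10 -0.045, Rpl11 -0.11, Rpl12 -0.11, Rpl22 -0.029, Rpl5 -0.048, Rplp0 -0.29, Rplp2 -0.13, Rps19 -0.15, Rps6 -0.20 and Rpsa -0.13.

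The replicate numbers of the titles did not meet the rule for pairing: over 59 pairs with the same number the median correlation of their deviations was -0.017, from -0.573 to 0.61. Between the day 1 groups it was 0.348 to 0.61 for numbers 2, 3, 5 and 6 but -0.34 and -0.214 for numbers 1 and 4, so not every number paired its libraries, although numbers 5 and 6 stood apart together in both groups. With the replicate block 2 member calls were lost and 9 gained over the 7 comparisons.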

Other observations

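Initiation factors, which bring the ribosome to the messenger RNA, moved in both directions around day 0. In D0 against NC 12 of 39 rose and 6 fell, where 19.7% of all genes were higher and 41.4% lower. Eif1a, which helps to select the start codon, rose by 1.12 (adjusted p = 8.9e-07) and Eif2s1, a subunit of the factor that carries the initiator tRNA, by 0.88 (adjusted p = 1.6e-06), while Eif4b, a partner of the initiation helicase, fell by 0.92 (adjusted p = 3.4e-06) and Eif4a2 by 0.67 (adjusted p = 0.001). From D0 to D1 AP+PBS 8 rose and 12 fell (43% and 19.8% of all genes), with Eif3f highest at 0.89 (adjusted p = 1.2e-07) and the cap-binding protein Eif4e lowest at -1.05 (adjusted p = 2.8e-08). Both comparisons share the D0 libraries.

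Of 19 aminoacyl-tRNA synthetase genes tested, 5 rose and 1 fell in D0 against NC (19.7% and 41.4% of all genes), with Rars highest at 1.04 (adjusted p = 2.5e-06) and Vars at -0.82 (adjusted p = 0.012). From D0 to D1 AP+PBS 2 rose and 6 fell (43% and 19.8% of all genes), with Rars at -0.96 (adjusted p = 4.9e-07) and Vars at 0.96 (adjusted p = 0.00075).

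Rpl39l and Rpl3l, which did not pass the filter, had 0 to 18 and 0 to 53 fragments per library.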
